A study of Homo sapiens with 10 samples.

Results

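The EGR, NR4A and ZFP36 genes are immediate early genes, and their RNA was measured in A375 cells, an established human melanoma line. Members were the probe sets whose symbol in the platform's probe-to-gene table was EGR1 to EGR4, NR4A1 to NR4A3, ZFP36, ZFP36L1 or ZFP36L2. Of these 10 genes 9 had a probe set, 1 each, among 18569 probe sets in all, and EGR2 was not analysed here. The study compared control A375 cells with A375 cells plated in doxycycline at 2 µg/ml, all frozen on day 4, with 5 Clariom S arrays of total RNA in each group. Both groups were grown in RPMI1640 with glutamine and 10% fetal bovine serum. Omomyc, named in the series title, is a dominant-negative form of MYC that keeps MYC and MAX from driving transcription. The labels do not describe a construct, a clone or a doxycycline control without Omomyc, so an effect of doxycycline alone cannot be told apart from one of Omomyc. The arrays of a group are called biological replicas, with nothing on separate cultures, so the p-values cover the spread between these arrays, part of which may be technical.

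Immediate early genes are transcribed within minutes of a growth factor or stress signal, without new protein synthesis. Kinases of the ERK and cAMP pathways switch them on through SRF with its ELK partners and through CREB, and their RNAs are usually short-lived. EGR proteins are zinc finger transcription factors that bind GC-rich sites, and NR4A proteins are orphan nuclear receptors that act without a known natural ligand. ZFP36 proteins bind AU-rich elements in the tails of messenger RNAs and recruit enzymes that shorten and destroy them. In melanoma cells with mutant BRAF, such as A375, ERK signalling is active at all times.

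Doxycycline-treated cells had more RNA signal for EGR1, EGR3, NR4A1, NR4A2 and ZFP36, and less for ZFP36L2. EGR1 was 3.38-fold higher, ZFP36 2.83-fold, NR4A2 2.28-fold, EGR3 2.20-fold and NR4A1 1.59-fold, while ZFP36L2 was 2.46-fold lower. EGR4, NR4A3 and ZFP36L1 did not pass the test. Thus 5 of the 9 measured members rose and 1 fell, against 20.9% of all probe sets higher and 17.2% lower at an adjusted p under 0.05 (38.1% in either direction). At a log2 change of at least 1 in size as well, 4 members were higher and 1 lower, against 2.43% and 4.04% of all probe sets. The median log2 fold change was 0.66 over the 9 members and 0.04 over all probe sets. On the arrays, 6 members had groups that did not overlap, 5 of them higher and 1 lower, as did 28.6% of all probe sets (14.9% higher and 13.6% lower). The shares of all probe sets include dim ones, which passed less often. With only probe sets at or above the median signal tested, 5586 passed, against 7078 of all 18569. All levels are log2 units of RMA signal, and a change is doxycycline minus control on that scale ± the SE of limma.

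**Figure D1:**
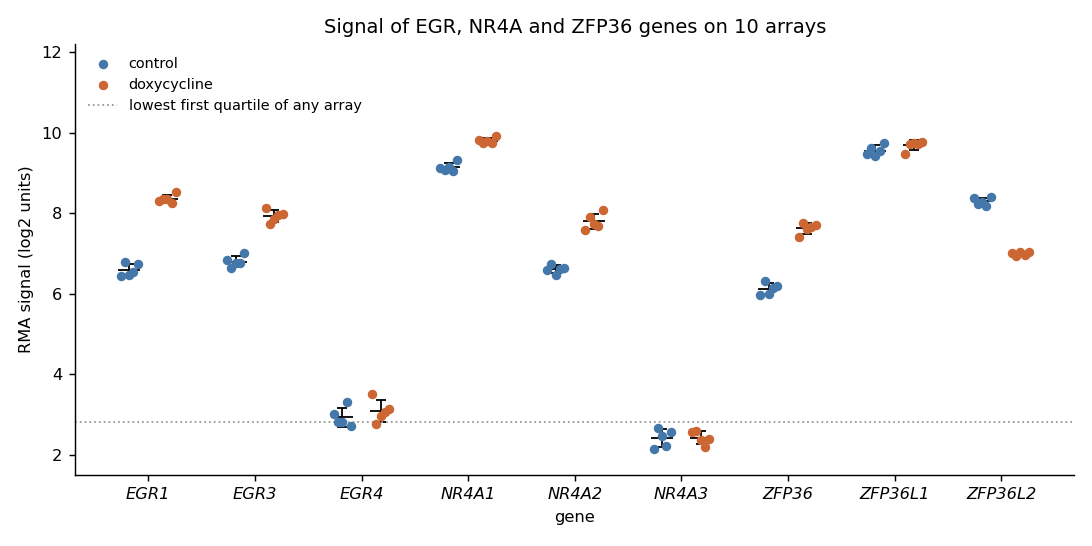
RMA signal in log2 units (vertical axis) of the 9 measured genes (horizontal axis), with 1 point per array, blue for control and orange for doxycycline, and black bars for the mean ± SD of 5 arrays. The groups are apart for EGR1, EGR3, NR4A1, NR4A2, ZFP36 and ZFP36L2, and NR4A3 lies below the dotted line at 2.80, the first quartile of the array where it is lowest.

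Within the EGR family the change was largest for EGR1, which links growth factor signals to genes of growth, matrix and survival. EGR1 read 6.45, 6.78, 6.47, 6.54 and 6.73 on control arrays 1 to 5 and 8.29, 8.35, 8.36, 8.26 and 8.51 on doxycycline arrays 1 to 5. All 5 doxycycline arrays lay above all 5 control arrays, with a gap between the groups wider than the range within either. The means were 6.60 ± 0.15 and 8.35 ± 0.10 (SD, n = 5), a change of 1.76 ± 0.09 (limma, adjusted p = 1.53e-09). A larger rise was seen for 74 of the 18569 probe sets.

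EGR3 is itself induced by growth factors and antigen receptors, and in many cells it follows EGR1. Its control arrays read 6.82, 6.63, 6.75, 6.76 and 7.01 and its doxycycline arrays 8.14, 7.73, 7.85, 7.96 and 7.98. The groups did not overlap, and doxycycline array 1, which was below the doxycycline mean for EGR1, was the highest for EGR3. The change was 1.14 ± 0.10 (limma, adjusted p = 2.07e-07), with 339 probe sets rising more. EGR4, known mainly from neurons and germ cells, was dim. Its control arrays read 3.00, 2.82, 2.82, 3.30 and 2.70 and its doxycycline arrays 3.51, 2.77, 2.95, 3.07 and 3.13. These overlapped throughout apart from doxycycline array 1, and the change of 0.16 had a 95% interval from -0.14 to 0.45 (limma, adjusted p = 0.422). A rise of more than 0.45 log2 units of signal lies outside this interval, but low signals can compress changes, so it does not bound the RNA.

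The EGR1 and EGR4 promoters are shown because EGR1 rose and EGR4 did not pass the test. Promoter windows came from RefSeq for GRCh38.p14 and run from 250 bases before to 50 bases after a transcription start, and 6 of the 9 measured members matched a window, with 8 windows in all. They were searched on both strands for the CArG box bound by SRF, the cAMP response element TGACGTCA and its core TGACG, the MYC and MAX site CACGTG, the EGR sites GCGGGGGCG and GCGTGGGCG, and the NR4A site AAAGGTCA. The core TGACG lies within TGACGTCA, so a full element counts under both. Each line below gives the 150 bases before the start, 5′ to 3′ on the gene's strand, with matches in capitals.
EGR1, chr5:138465329-138465478, plus strand: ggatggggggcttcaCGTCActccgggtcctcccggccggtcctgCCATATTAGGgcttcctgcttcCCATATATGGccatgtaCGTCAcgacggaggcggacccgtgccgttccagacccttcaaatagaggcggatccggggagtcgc
EGR4, chr2:73293549-73293698, minus strand: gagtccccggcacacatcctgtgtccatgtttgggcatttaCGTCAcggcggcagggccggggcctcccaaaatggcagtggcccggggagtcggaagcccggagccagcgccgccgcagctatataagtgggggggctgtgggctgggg

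EGR1 held 2 CArG boxes, at 105 to 96 and at 83 to 74 bases before the start, with a core TGACG on the minus strand on either side of the pair. A CArG box was in 1.29% of the 35116 windows of this length, and among the windows of the measured members EGR1's was the only one with it. EGR4 held the core TGACG, found in 24.6% of windows, 109 to 105 bases before the start and once more outside the printed stretch. No window of the measured members matched CACGTG (7.26% of all windows), either EGR site (5.07% and 0.795%) or AAAGGTCA (1.22%). A match describes letters in this window and was not tested as a binding site.

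Among the NR4A receptors NR4A2 had the larger change, although NR4A1 is the member best known in blood and skin cells and NR4A2 in dopamine neurons. NR4A2 read 6.58, 6.75, 6.46, 6.61 and 6.65 in control and 7.59, 7.90, 7.72, 7.69 and 8.08 with doxycycline. The groups did not overlap, and doxycycline array 5 was the highest, as it was for EGR1. The change was 1.19 ± 0.10 (limma, adjusted p = 2.02e-07). NR4A1, also called Nur77, read 9.12, 9.06, 9.14, 9.05 and 9.31 in control and 9.81, 9.74, 9.79, 9.75 and 9.92 with doxycycline. Its means were 9.14 ± 0.11 and 9.80 ± 0.07 (SD, n = 5). The change of 0.66 ± 0.08 was the smallest of the called members (limma, adjusted p = 8.34e-06), and here too no doxycycline array reached down to a control array.

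NR4A3, also called NOR1, lay near the bottom of the arrays, at 2.15, 2.67, 2.46, 2.21 and 2.57 in control and 2.56, 2.59, 2.37, 2.19 and 2.39 with doxycycline. Both group means, 2.41 and 2.42, were below 2.80, the first quartile of the array where it is lowest, and the doxycycline values lay inside the control range. The change was 0.01 with a 95% interval from -0.24 to 0.25 (limma, adjusted p = 0.974). Its promoter is shown as the window with the most cAMP response element cores among the measured members, in a gene whose RNA signal was this low.
NR4A3, chr9:99821735-99821884, plus strand: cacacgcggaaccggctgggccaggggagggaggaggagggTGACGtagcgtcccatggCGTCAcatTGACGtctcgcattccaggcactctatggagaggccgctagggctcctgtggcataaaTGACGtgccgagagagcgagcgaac

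NR4A3 held 4 cores, in capitals above, whereas neither of the 2 windows of NR4A1 matched any of the motifs searched. Any other start of NR4A1, and sites farther away, were not searched, so this does not describe its promoters as a whole.

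The ZFP36 family split, with 1 member higher, 1 lower and 1 that did not pass. ZFP36, also called tristetraprolin, limits cytokine production by destroying cytokine RNAs. It read 5.97, 6.33, 5.99, 6.15 and 6.20 in control and 7.41, 7.76, 7.62, 7.65 and 7.69 with doxycycline, with no overlap. The change was 1.5 ± 0.09 (limma, adjusted p = 9.83e-09), and 145 probe sets rose more. ZFP36L2, a relative needed for blood cell development, read 8.38, 8.22, 8.28, 8.17 and 8.39 in control and 7.01, 6.93, 7.03, 6.97 and 7.03 with doxycycline. Every doxycycline array was below every control array, and the 5 doxycycline arrays spanned 0.10 log2 units, the narrowest range of any member in either group. The means were 8.29 ± 0.10 and 6.99 ± 0.04 (SD, n = 5), and ZFP36L2 fell by 1.30 ± 0.08 on the log2 scale (limma, adjusted p = 4.74e-09). A larger fall was seen for 440 probe sets.

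ZFP36L1, which acts on many of the same RNAs and is widely expressed, read 9.47, 9.62, 9.41, 9.53 and 9.74 in control. With doxycycline it read 9.47, 9.73, 9.73, 9.71 and 9.77. Doxycycline array 1 stood 0.25 below the next array and among the control values, and the groups overlapped. The change of 0.13 had a 95% interval from -0.06 to 0.32 (limma, adjusted p = 0.302), so a rise of more than 0.32 log2 units lies outside it. The ZFP36 and ZFP36L1 promoters are shown because ZFP36 rose with no match while ZFP36L1, with a full cAMP response element, did not pass.
ZFP36, chr19:39406697-39406846, plus strand: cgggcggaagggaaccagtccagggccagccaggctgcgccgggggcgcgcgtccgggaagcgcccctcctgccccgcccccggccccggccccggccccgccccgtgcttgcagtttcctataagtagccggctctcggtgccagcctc
ZFP36L1, chr14:68793417-68793566, minus strand: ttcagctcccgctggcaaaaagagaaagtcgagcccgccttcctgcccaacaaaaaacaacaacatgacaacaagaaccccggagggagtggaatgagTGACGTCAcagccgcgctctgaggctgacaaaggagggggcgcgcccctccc

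The full element of ZFP36L1 lay 52 to 45 bases before this start, and 1.85% of all windows held one. The other ZFP36L1 start had a single core TGACG, 147 to 143 bases before it. No letters of the motifs searched were in the ZFP36 window, which says nothing of sites farther away.

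**Figure D2:**
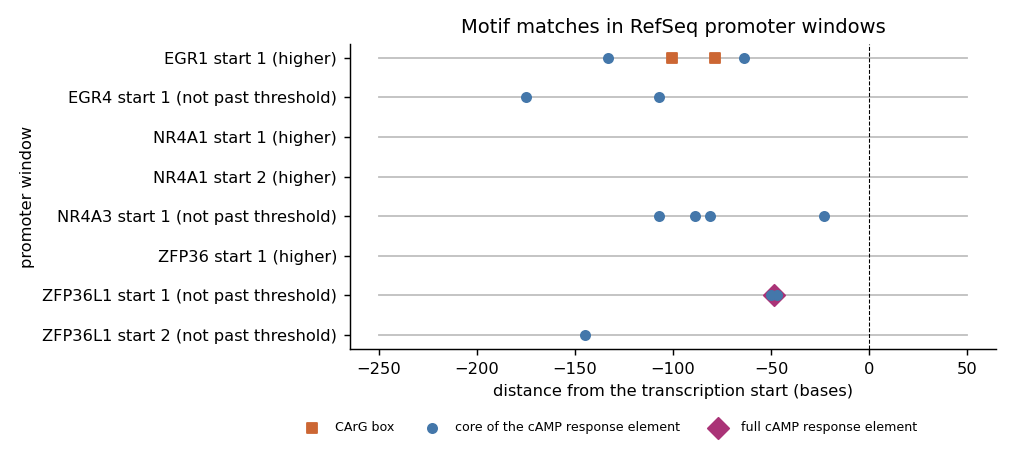
Positions of motif matches (distance from the transcription start in bases, horizontal axis) in the 8 RefSeq windows of measured members, with starts of a gene numbered by genome position and the call of each gene in brackets. Orange squares are CArG boxes, which appear in EGR1, blue circles the core TGACG and the purple diamond the full element of ZFP36L1. The windows of NR4A1 and ZFP36 are empty, and starts without a window were not searched.

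**Figure D3:**
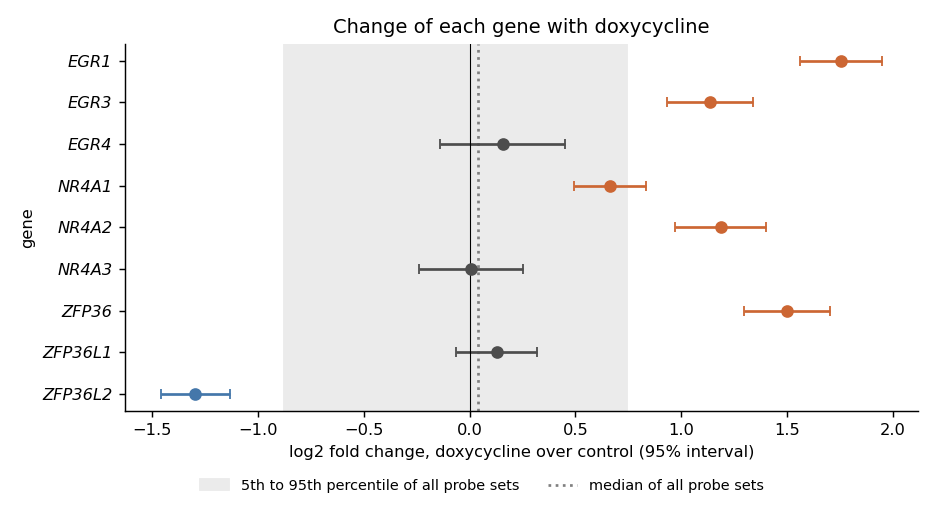
Log2 fold change of doxycycline over control with its 95% interval (horizontal axis) for each measured gene, orange where higher, blue where lower and grey where the test was not passed. EGR1, EGR3, NR4A2 and ZFP36 lie to the right and ZFP36L2 to the left of the grey band, which spans -0.88 to 0.74, the 5th to 95th percentile of all probe sets.

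Family members changed by unequal amounts. The difference of change was tested for the 9 pairs within families with an exact two-sided permutation test over the 252 splits of the arrays, adjusted over the 9 pairs. Each pair gave p = 0.00794, also after adjustment, which is the smallest p that this exact test can give with 5 arrays against 5. EGR1 rose by 0.62 more than EGR3 (95% interval 0.33 to 0.91) and EGR3 changed by 0.98 more than EGR4 (0.64 to 1.32). NR4A2 rose more than NR4A1, whose change was smaller by 0.52 (NR4A1 minus NR4A2, -0.52, 95% interval -0.76 to -0.29). NR4A1 in turn changed by 0.66 more than NR4A3 (0.37 to 0.95). The widest separation was in the ZFP36 family, where ZFP36 and ZFP36L2 moved apart by 2.79 (2.52 to 3.06), a 6.94-fold shift of their ratio. ZFP36L1 stood between them, 1.37 ± 0.05 below the change of ZFP36 and 1.42 ± 0.09 above that of ZFP36L2. For pairs, ± is the pooled SE of the per-array differences and not that of limma, and the intervals use it with a t distribution. EGR4 and NR4A3, which enter 4 of the pairs, were at the lower end of the signal range.

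**Figure D4:**
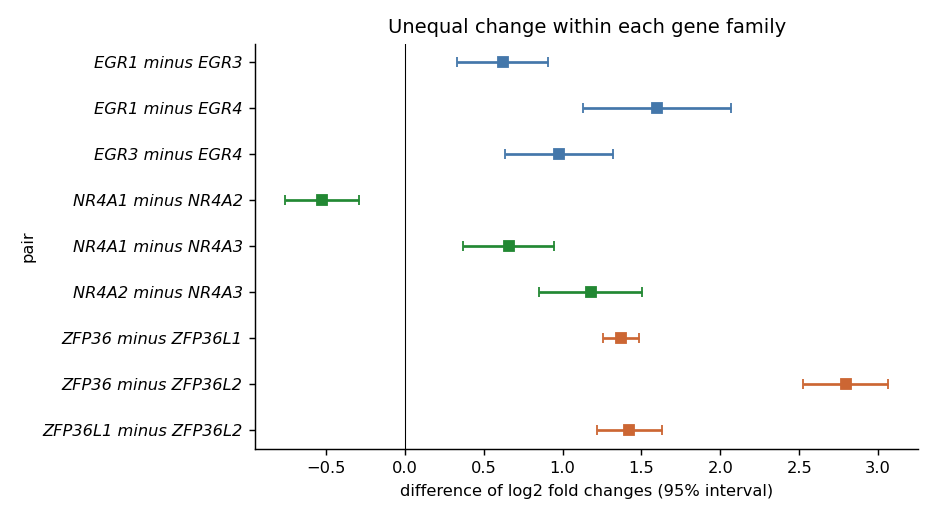
Difference of log2 fold changes between members of a family (horizontal axis), with 95% intervals, for 9 pairs, blue for EGR, green for NR4A and orange for ZFP36 pairs. No interval includes 0, and ZFP36 minus ZFP36L2 is the largest difference at 2.79.

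Some arrays were high or low for many members at once. Control array 5 lay above the control mean for 8 of 9 members, and doxycycline array 5 above the doxycycline mean for 8 of 9. All 5 members that rose were above their group mean on both arrays, by 0.13 on average on each, while the median deviation of all probe sets was -0.0032 on control array 5 and -0.0056 on doxycycline array 5. Control array 3 was low for most members, with 2 of 9 above the mean. These shifts were small beside the changes of the called members, which ranged from 1.08 to 1.19 for EGR3 and from 0.64 to 0.71 for NR4A1 when each array in turn was left out.

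The nearest profiles were sought by the root mean square difference over the 10 arrays, after subtracting each gene's control mean. For EGR1 they were ARID5B (0.10 log2 units), a chromatin cofactor, CFI (0.11), a complement protease, and S1PR1 (0.12), a lipid receptor. The median over all named probe sets was 1.23. For ZFP36 they were the bone transcription factor RUNX2 (0.10), the phosphodiesterase PDE3A (0.10) and LMNTD1 (0.11), against a median of 1.05. For NR4A1 they were LGALS3BP, CLSTN1 and LTBP3, all at 0.06 against 0.48. None was a member, and with 10 arrays in 2 groups this measure mainly finds genes with a change of like size.

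The pathway and marker lists below were chosen with earlier results of these data known. A share above that of all probe sets may therefore reflect the choice. Of 19 factors and kinases that act on immediate early promoters, 5 were higher, 3 were lower and 11 did not pass, with a median of 0.03. The shares of 26.3% and 15.8% were near the 20.9% and 17.2% of all probe sets, dim ones included. No gene of this list lay below 2.80 in both groups, and a share among genes of like signal was not computed. The called SRF partners were the actin-regulated coactivators MRTFB (0.73 ± 0.09) and MRTFA (0.40 ± 0.09), ELK3 (0.40 ± 0.08) and ELK4 (-0.29 ± 0.08). MEF2D, a calcium-responsive factor (0.69 ± 0.08), and CREB1 (0.30 ± 0.08) were also higher. RPS6KA2, an RSK kinase downstream of ERK, fell from 6.19 to 3.58, a 6.10-fold difference, and the MSK kinase RPS6KA4 fell by 0.49 ± 0.11. SRF itself did not pass, with a change of -0.01 ± 0.11.

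Of 32 other immediate early genes 15 rose and 5 fell, which is 46.9% and 15.6% against 20.9% and 17.2% of all probe sets, with a median of 0.20. FOS (1.23 ± 0.14) and JUN (1.21 ± 0.11), which form AP-1, rose, by less than EGR1. HES1, a repressor induced by Notch (-1.57 ± 0.11), KLF10, a TGF-beta-induced repressor (-1.20 ± 0.07), ATF3, a stress factor (-0.61 ± 0.10), CCN1, a matrix protein (-0.44 ± 0.13), and NPAS4 (-0.29 ± 0.11) fell. NPAS4 lay below 2.80 in both groups, and its call was lost without control array 1, 2 or 4 or doxycycline array 1, 2, 3 or 5 (limma, adjusted p 0.0650 to 0.115), and with centred arrays (0.0837). The 15 include MYC, and whether its probe set also reads an Omomyc transcript was not examined.

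ERK feedback and output genes divided, with 7 of 20 higher and 4 lower and a median of 0.09. This is 35% and 20%, against 20.9% and 17.2% of all probe sets. EPHA4, an ephrin receptor, rose (1.27 ± 0.09), whereas PHLDA2 (-1.77 ± 0.12), the AP-1 subunit FOSL1 (-1.60 ± 0.09), cyclin D1, CCND1 (-1.39 ± 0.09), and the ETS factor ETV4 (-0.28 ± 0.09) fell. DUSP6, a phosphatase whose RNA follows ERK activity, did not pass, at 0.10 ± 0.08.

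Among EGR corepressors and genes reported as EGR1 targets, 10 of 17 rose and 3 fell, with a median of 0.42. In shares, 58.8% rose and 17.6% fell, against 20.9% and 17.2% of all probe sets, in a list chosen with earlier results known. The matrix protein fibronectin, FN1 (2.39 ± 0.10), and the prostaglandin E synthase PTGES (2.23 ± 0.09) rose most. PDGFA, a platelet growth factor (-2.42 ± 0.13), VEGFA, an angiogenic factor (-1.52 ± 0.08), and the stress cytokine GDF15 (-0.39 ± 0.14) fell. The GDF15 call was lost without each of 8 of the 10 arrays, all but control array 4 and doxycycline array 1 (limma, adjusted p 0.0530 to 0.0835), and with quantile normalization of the deposited values (0.0509). NAB1 and NAB2, the corepressors that EGR proteins bind, did not pass, at 0.18 ± 0.10 and -0.04 ± 0.10.

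Around the NR4A receptors, 5 of 9 genes known to respond to cAMP and CREB were higher and 1 lower, with a median of 0.34. That is 55.6% and 11.1%, against 20.9% and 17.2% of all probe sets. The higher ones were the neurotrophin BDNF (1.35 ± 0.09), the melanocyte factor MITF (1.21 ± 0.08), the phosphodiesterases PDE4B (0.66 ± 0.10) and PDE4D (0.34 ± 0.09), and RGS2, a brake on G proteins (0.53 ± 0.17). RGS2 lost its call without control array 1 (limma, adjusted p = 0.0591), and the lower gene was NPAS4. Of the retinoid X receptors, with which NR4A1 and NR4A2 pair, RXRG fell (-1.27 ± 0.13) and RXRB rose (0.34 ± 0.09), the 2 members measured.

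ZFP36 proteins recruit the enzymes of mRNA deadenylation and decapping, and of 18 such genes 3 rose, 3 fell and 12 did not pass, with a median of 0.06. The share of 16.7% in each direction was near the 20.9% and 17.2% of all probe sets, dim ones included. No gene of this list lay below 2.80 in both groups, and a share among genes of like signal was not computed. The exonuclease XRN1 (0.75 ± 0.10), the deadenylase subunit PAN3 (0.28 ± 0.09) and the helicase DDX6 (0.27 ± 0.08) rose, and the CCR4-NOT subunits CNOT9 (-0.68 ± 0.09) and CNOT10 (-0.22 ± 0.07) and the decapping factor PATL1 (-0.43 ± 0.09) fell. PAN3 lost its call without control array 2, 3 or 4 or doxycycline array 2, 3 or 5 (limma, adjusted p 0.0511 to 0.0675), and CNOT10 without control array 2, 3 or 4 or doxycycline array 3 (0.0551 to 0.0808). CNOT10 also lost it with arrays centred on their medians or with replicate number as a block (limma, adjusted p 0.0633 and 0.0673), which left 2 lower genes. Of 9 kinases and 14-3-3 proteins that regulate ZFP36, MAPKAPK3 (-0.54 ± 0.09) and YWHAH (-0.23 ± 0.08) fell. This is 22.2% lower and 0% higher, against 17.2% and 20.9% of all probe sets. YWHAH lost its call without control array 2, 3 or 4 or doxycycline array 2, 3, 4 or 5 (limma, adjusted p 0.0533 to 0.0852), and with centred arrays or the block (0.0741 and 0.0769).

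Of 8 other proteins that bind or clear RNAs with AU-rich elements, RC3H1 (0.61 ± 0.09) and TIA1 (0.32 ± 0.11) rose and HNRNPD (-0.28 ± 0.09) fell. The shares were 25% and 12.5%, against 20.9% and 17.2% of all probe sets. TIA1 lost its call without control array 1, 2 or 3 or doxycycline array 2, 3 or 4 (limma, adjusted p 0.0607 to 0.0854), and HNRNPD without control array 3 or 4 or doxycycline array 1 or 5 (0.0502 to 0.0645). Reported targets of ZFP36 proteins were mixed, in that 11 of 23 rose and 6 fell, with a median of 0.31. That is 47.8% and 26.1%, against 20.9% and 17.2% of all probe sets. The cytokine IL6, from 2.57 to 5.07, and the chemokine CCL2, from 5.85 to 8.09, rose most, while VEGFA and CCND1 fell. This list shares 7 genes with others here, among them FOS, MYC, CCND1 and VEGFA.

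**Figure D5:**
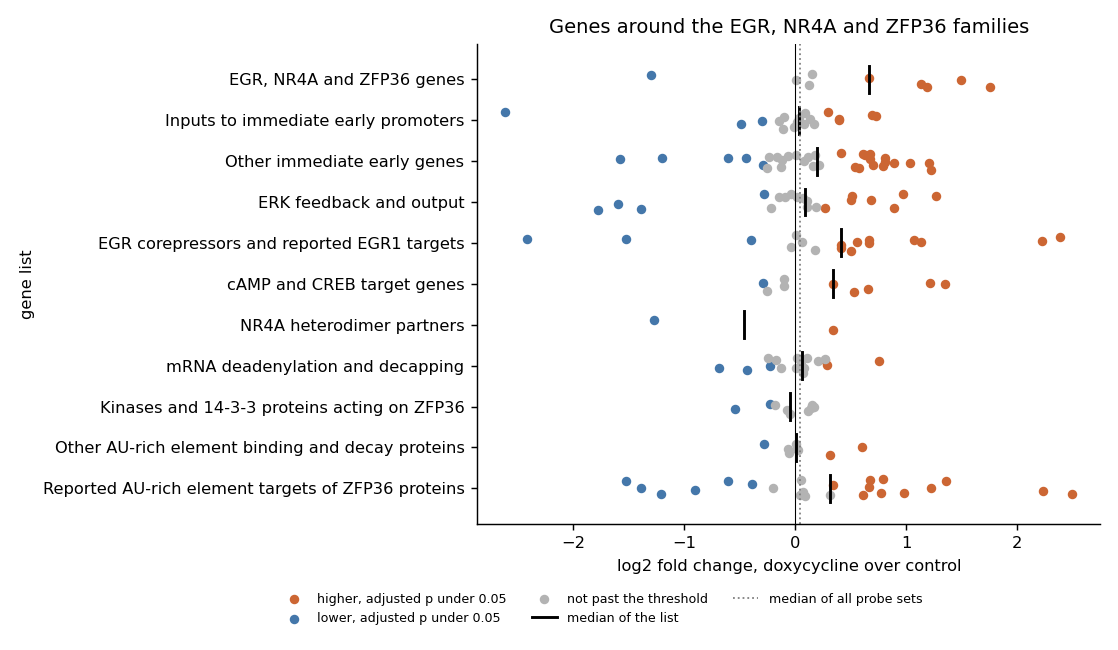
Log2 fold change of doxycycline over control (horizontal axis) of each measured gene in 11 lists, with 1 point per gene, orange where higher, blue where lower and grey where the test was not passed, and black bars for list medians. The median of the EGR, NR4A and ZFP36 genes was 0.66, that of reported EGR1 targets 0.42 and that of promoter inputs 0.03, beside 0.04 over all probe sets (dotted line).

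The arrays had median signals of 5.02 to 5.10, and their number limits the precision. Of 13 melanoma markers 6 rose and 2 fell, which is 46.2% and 15.4% against 20.9% and 17.2% of all probe sets. The lineage factor SOX10 did not pass, at 8.71 in control and 8.91 with doxycycline. CDH19 (1.46 ± 0.08), MITF and PAX3 (0.88 ± 0.12) rose most, and CSPG4 (-1.40 ± 0.12) and TFAP2A (-0.38 ± 0.09) fell. The pigment genes PMEL, MLANA, TYR and TYRP1 lay below 2.80 in both groups, and TYR is counted among the markers that rose. Of 7 keratinocyte markers 5, of 7 endothelial markers 5 and of 7 leukocyte markers 4, PTPRC and CD3E among them, were below that level in both groups. Fibroblast markers rose in 5 of 7 cases (71.4%), with mean signals of 3.89 to 4.09 on control and 4.69 to 4.76 on doxycycline arrays. The endothelial marker KDR (5.70 to 6.88) and the leukocyte marker LYZ (6.87 to 8.31) rose as well. So did the leukocyte marker CD14 (2.82 to 3.34) and the keratinocyte marker KRT5 (2.45 to 2.84), both at dim signals. The endothelial, leukocyte and keratinocyte lists had 14.3%, 28.6% and 14.3% higher, against 20.9% of all probe sets. The part of these markers in the changes of the members was not tested. All samples were labelled as the A375 line, and whether other cells were mixed into the cultures was not tested. A change in the share of A375 cells with a given RNA and a change of RNA per cell cannot be told apart in bulk samples.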

How the data were processed

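Total RNA of 10 samples was hybridised to Clariom S arrays, 1 each. The authors deposited log2 expression values made with RMA (background correction, quantile normalization, probe set summary), per the submitters' processing notes; the sources used here do not give its version or filters. Fold changes are relative to other genes of the array, since RMA equalises arrays, and low signals can compress them. Symbols came from the platform annotation, with 17511 of 18569 probe sets named. For genes with several probe sets the one with the highest mean was used.

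Groups were compared with limma 3.58.1 (R 4.3.3, lmFit and eBayes, group as the only term, two-sided), with Benjamini-Hochberg adjustment over all probe sets and calls at an adjusted p under 0.05. Family pairs were compared with an exact permutation test, with t intervals from the pooled SE of the per-array differences. The methods were tested on simulated data. Members, 10 pathway lists and 5 marker lists, written from general knowledge, were chosen with earlier results of these data known. Named genes were all members, the 4 largest called changes of each pathway list, all calls in a direction with at most 5, and the 3 nearest profiles of EGR1, NR4A1 and ZFP36. SRF, NAB1, NAB2, DUSP6, MYC and the marker genes are named outside this rule, after their values were seen.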

Additional observations from a re-analysis of the deposited data

Results flagged for a closer look

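Among 63 named genes, each examined in 2 groups of 5 arrays, 7 values stood far from the other arrays of their group, with a gap of more than 0.71 of the group's range. Chance gives about 1 in 20 groups, and 126 groups were examined, so a count near these 7 values could arise by chance alone. The 1 member among them was ZFP36L1, at 9.47 on doxycycline array 1 against 9.71 on the next array, and without that array its change still did not pass. MRTFA was at 6.06 and RXRG at 9.31 on control array 4, against 5.75 and 8.99 on the nearest array. PDGFA was at 3.32 on doxycycline array 5 (next 3.91), PDE4D at 8.07 on doxycycline array 4 (next 7.85), DDX6 at 9.74 on doxycycline array 2 (next 9.91) and CLSTN1 at 8.68 on control array 5 (next 8.50).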

How the results depend on the processing

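All 9 members kept their side of the threshold, and the 6 called ones their direction, under each of 16 alternatives: 2 filters on dim probe sets, centring on medians, quantile normalization, trended and robust eBayes, the replicate block and each array left out. The filter at the 25th percentile removed NR4A3, and that at the median EGR4 as well. With a log2 change of at least 1 required, 4 were higher and 1 lower. Calls over all probe sets ran from 6378 to 7237 with an array left out. Over all probe sets, same-numbered arrays did not deviate together (correlations -0.44 to -0.01, 0 of 5 controls nearest to their own number). For the 5 members that rose, mean deviations on control and doxycycline arrays were -0.06 and -0.05 for number 1. They were 0.06 and -0.004 for number 2, and -0.09 and -0.04 for number 3. Numbers 4 and 5 gave -0.03 and -0.04, and 0.13 and 0.13. Joint deviation of these members by number was not tested. With the replicate block 5 members were higher and 1 lower, and calls over all probe sets numbered 6476. All 9 pairs passed with any array left out, centred or quantile normalized, but 0 passed when arrays were exchanged only within replicate numbers, where 0.0625 is the smallest p the exact test allows and says nothing of stability. Above the median signal, cAMP targets had 3 higher and 0 lower, promoter inputs 1 lower and other immediate early genes 3 lower, since fewer genes were tested. The lower cAMP target was also lost above the 25th percentile (0) and with arrays centred on their medians (0). Regulators of ZFP36 had 1 lower with centred arrays and with the replicate block, and 3 with either signal filter or trended and robust eBayes. With an array left out, lower cAMP targets numbered 0 to 1, lower regulators of ZFP36 1 to 3, and other AU-rich binding proteins 1 to 2 higher and 0 to 1 lower.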
